A study of Mus musculus with 8 samples.

Results

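Round spermatids are the haploid germ cells that follow meiosis and still carry most of their DNA on nucleosomes, before histones are replaced by transition proteins and protamines. H2A.L.2 is a testis-specific variant of histone H2A whose loss is known to disturb that later replacement. Micrococcal nuclease (MNase) digests DNA that is not held by protein, so the sequenced fragments mark where nucleosomes sat. Neighbouring nucleosomes are separated by short linkers, which gives arrays with a regular repeat, and the strength of that repeat shows how similarly arrays are placed in different cells.

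The data described here are the nucleosome positions of 2 round spermatid libraries, 1 from wild-type (WT) and 1 from H2A.L.2-less mouse testis, from the authors' lists (mm9 genome build). Every position on chromosomes 1 to 19 was used. This gave 5322422 summits for WT and 4700815 for H2A.L.2-less cells, together 10023237 of the 36905351 autosomal summits in the 8 lists of the series. The other 6 lists come from spermatocytes, from nucleosome-sized fragments of condensing spermatids and from small structures of condensing spermatids, which are fragments of 40 to 80 bp, each in WT and H2A.L.2-less cells. A summit is the point of highest coverage of a 140 bp position, and a summit is called matched when the other round spermatid list has a summit within 40 bp. WT-only and H2A.L.2-less-only summits have none. The cells were fractions enriched for round spermatids. The sources used here do not give strain, age, allele or number of animals, and genotype and stage labels were not checked against markers, because the lists hold no genes.

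Each group had 1 library, so no test between genotypes was possible and no difference has a replicate check. Spreads are standard deviations (SD) over the 19 autosomes, which describe variation along the genome and not between animals. The 8 libraries had 207000000 to 753000000 reads each by the series description, and the depth of a single library is unknown. Summit values, the height of coverage at the summit, have no common scale, so each was divided by the autosomal median of its own list and called the relative height. The median summit value was 240 for WT and 204 for H2A.L.2-less cells, while the lowest values (first percentile) were 176 and 168. The median thus stood 1.36 times above that floor in WT and 1.21 times in H2A.L.2-less cells. A site with coverage under the floor is missing from a list, and fewer nucleosomes at a site cannot be told apart from lower coverage there. The H2A.L.2-less round spermatid list stood apart from the other 5 nucleosome lists in being spread more evenly along the chromosomes, as described with the window counts, and most results here rest on that library.

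The first question was how many nucleosome summits of WT round spermatids had a counterpart without H2A.L.2. Matching was one to one and gave 2318951 pairs. These were 43.6% of WT summits (SD 0.887 points) and 49.3% of H2A.L.2-less summits (SD 1.32 points), and both 95% Wilson intervals were within 0.0452 points of the share, for counting error alone. When the other list was moved by 5 kb, 18.5% of WT and 20.9% of H2A.L.2-less summits still found one within 40 bp. The matched shares were therefore 2.36 times that background in both directions. With the WT list cut to the length of the H2A.L.2-less list, 45.2% of both were matched. At the same equal-length setting the share was 53.0% in spermatocytes and 30.2% in condensing nucleosomes, so round spermatids lay between these stages.

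Matched shares differed little between chromosomes. The autosomes with the highest share of matched WT summits were 14, with 45.4%, 3, with 44.7%, and 13, with 44.5%. The lowest were 11, with 42.2%, 5, with 42.3%, and 17, with 42.5%. Of the H2A.L.2-less summits, 52.4% were matched on chromosome 11 and 46.7% on chromosome 3, the highest and lowest of the 19. Both shares count the same pairs, so their ratio on an autosome equals its ratio of numbers and is not a separate observation. That ratio was lowest on chromosome 11, with 248556 H2A.L.2-less against 308806 WT summits, a log2 ratio of -0.31. Chromosome 3 had 289119 against 302037, a log2 ratio of -0.06.

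**Figure D1:**
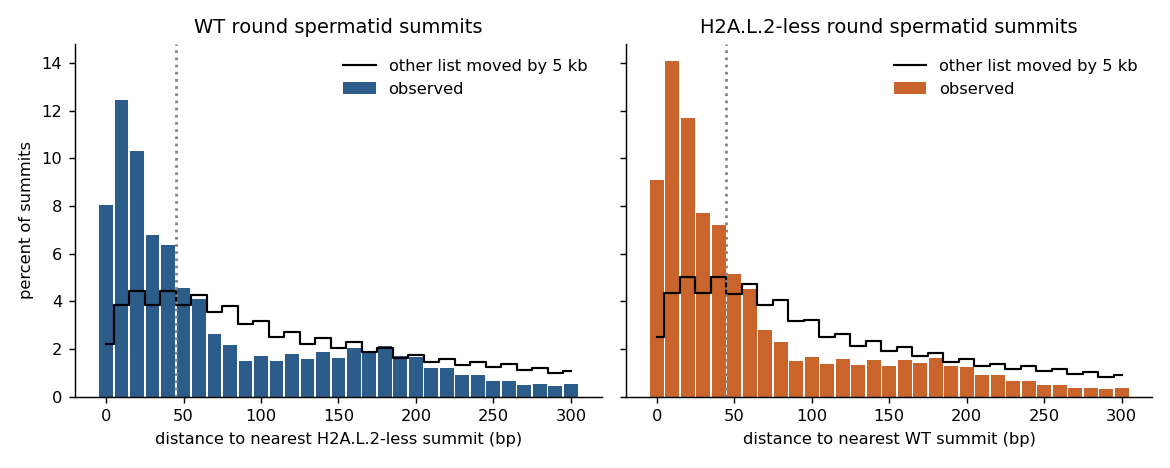
Distance from each summit (left, WT; right, H2A.L.2-less) to the nearest summit of the other genotype in bp, as percent of summits per 10 bp; the black line is the same after moving the other list by 5 kb and the dotted line marks the 40 bp limit. Distances from 0 to 40 bp are above the line, by the most points at 10 bp, a bar that takes in both sides. Distances from 70 to 140 bp are below it in both panels.

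Unmatched summits were of more than 1 kind. Of the WT summits, 15.4% had their nearest H2A.L.2-less summit at 50 to 90 bp, 8.35% at 100 to 140 bp and 32.7% farther away, beyond the width of a position. Of the H2A.L.2-less summits the shares were 16.7%, 7.40% and 26.6%. All of these were below the shares after moving the list by 5 kb, which were 18.8%, 12.9% and 49.8% for WT summits. Of the unmatched summits, 57.9% for WT and 52.4% for H2A.L.2-less cells had no summit of the other genotype within 140 bp. The limit of 40 bp cut a falling curve and not a gap. At 40 bp lay 6.34% of WT summits, with a median relative height of 1.05 and a fuzziness of 53.5, and at 50 bp lay 4.57%, with 1.05 and 54.1.

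Members of a pair are at most 40 bp apart by the rule. The distance between the members of a pair was 0 bp in 18.4%, 10 bp in 28.6%, 20 bp in 23.7%, 30 bp in 15.6% and 40 bp in 13.7% of pairs, on lists whose positions mostly lie on a 10 bp grid. Set against the moved list, the nearest H2A.L.2-less summit was at 0 bp for 8.04% of WT summits (2.21% after moving), at 10 bp for 12.4% (3.86%) and at 40 bp for 6.34% (4.43%). Pairs of higher summits coincided more often. In the highest decile of pairs by summed relative height 55.1% lay within 10 bp of each other, and in the lowest decile 42.1%. The log2 ratio of relative heights (H2A.L.2-less over WT) had quartiles of -0.31 and 0.23 over pairs. Its median of -0.02 is largely set by dividing each list by its own median. It was 0.14 in the lowest decile and -0.19 in the highest. In the lowest decile the median relative heights were 0.783 for WT and 0.863 for H2A.L.2-less summits, both near the calling floors. The floor stands at a different relative height in each list, so these decile values also depend on the scaling. Pairs beyond 2-fold were 0.741% higher and 0.891% lower in H2A.L.2-less cells. Across pairs, the rank correlation of height was 0.23 and that of fuzziness 0.38, over 2318951 pairs that come from the same 2 libraries.

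Matched summits were also tied to matched neighbours, but weakly. A WT summit within 250 bp of the summit before it was matched in 47.8% of cases where that earlier summit was matched and in 41.7% where it was not. For H2A.L.2-less summits the shares were 55.9% and 49.0%. Rows of 5 or more matched summits held 2.12% of the matched WT summits, and the longest row had 21.

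Unmatched summits were lower than matched ones in both lists. Matched WT summits had a median relative height of 1.08 (quartiles 0.900 and 1.32) and WT-only summits 0.967 (0.817 and 1.13), a ratio of 1.12 (SD 0.00757). Matched H2A.L.2-less summits stood at 1.06 (0.902 and 1.24) and H2A.L.2-less-only summits at 0.980 (0.863 and 1.12), a ratio of 1.08 (SD 0.0120). The order was the same on 19 of 19 autosomes in both lists. In summit values the medians were 260 and 232 in WT, and 216 and 200 in H2A.L.2-less cells.

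The share with a counterpart was greater among higher summits. Among the lowest decile of WT summits, with values up to 184, 30.8% were matched, and among the highest decile, from 348 upward, 67.7%. In H2A.L.2-less cells the shares were 38.3% in the lowest decile, up to 168, and 69.1% in the highest, from 280 upward. Of the 1875 WT summits above 10 times the median 92.4% were matched, as were 90.3% of the 1782 such H2A.L.2-less summits. The 3 highest WT-only summits lay on chromosome 9 at 3028601, 3037941 and 3034701, with summit values of 94904, 69432 and 69108. Their nearest H2A.L.2-less summits were 90, 120 and 130 bp away, with relative heights of 696, 454 and 2737. The 3 highest H2A.L.2-less-only summits were on chromosome 9 at 3025651 and 3006441 and on chromosome 2 at 98507471, with values of 729736, 78396 and 113788. The nearest WT summits were at 90, 120 and 140 bp, with relative heights of 4496, 259 and 126505. Their relative heights went from 288 to 3577.

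The fuzziness score, a measure of the spread of fragments about a summit by the authors' caller, separated matched from unmatched summits most clearly in WT. Matched WT summits had a median of 52.4 and WT-only summits 53.9, a difference of -1.45 (SD 0.0288). Matched H2A.L.2-less summits had 52.4 and H2A.L.2-less-only summits 53.1, a difference of -0.67 (SD 0.0827). Both differences had the same sign on 19 of 19 autosomes. Since low summits are fuzzier, the classes were also compared within deciles of height. The WT difference then lay between -0.855 and -1.31 in the 10 deciles. In H2A.L.2-less cells it was between 0.02 and -0.84, close to 0 in the lowest deciles and largest in the highest. The H2A.L.2-less difference turned to 0.19 when summits were matched within 73 bp.

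Fuzziness was highest for unmatched summits that overlapped a position of the other list. WT summits with the nearest H2A.L.2-less summit at 50 to 90 bp had a median of 54.9 and those at 100 to 140 bp had 55.6, whereas those with none within 140 bp had 52.9, near the matched ones. H2A.L.2-less summits had 54.4, 54.7 and 51.6 in the same order, so those with no WT summit nearby were sharper than the matched ones. The summits with no counterpart within 140 bp were also the lowest, with a median relative height of 0.933 for WT and 0.941 for H2A.L.2-less cells. Within pairs, the median difference in fuzziness (H2A.L.2-less minus WT) was -0.39 in the lowest and 0.42 in the highest decile by summed relative height.

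The second question was how regularly the nucleosomes were spaced when both lists had the same length. The 4700815 highest WT summits were kept, which dropped 11.7% of the WT list. The repeat was nearly the same in both lists and its curve more pronounced in H2A.L.2-less cells. The repeat length was 186.6 bp in WT (SD 0.234) and 186.3 bp in H2A.L.2-less cells (SD 0.111), a difference far below the 10 bp grid. Regularity was measured as the second peak of the distance curve, at 330 to 450 bp, over the trough before it. It was 1.92 for WT (SD 0.0328) and 2.17 for H2A.L.2-less cells (SD 0.0461). The ranges over autosomes, from 1.84 to 1.96 and from 2.08 to 2.23, did not overlap, and H2A.L.2-less cells had the higher value on 19 of 19 autosomes. The difference was 0.254 in round spermatids against 0.149 in spermatocytes and -0.00373 in condensing nucleosomes.

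The median gap between neighbouring summits up to 1000 bp apart was 250 bp in WT (SD 9.11) and 290 bp in H2A.L.2-less cells (SD 7.08), while the most frequent gap was 180 bp in both. Gaps of 100 to 140 bp made up 13.6% of WT and 10.3% of H2A.L.2-less gaps. Gaps from 150 to 230 bp made up 33.3% and 31.4%, and gaps of 300 bp or more 44.0% and 49.6%. The gap was also compared where numbers were alike. In the 3619 windows of 100 kb in which the 2 lists had nearly equal numbers (within 0.1 on the log2 scale), the median gaps were 270 and 280 bp. Regularity still differed there, with 1.94 for WT and 2.196 for H2A.L.2-less cells, and the latter was again higher on 19 of 19 autosomes.

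**Figure D2:**
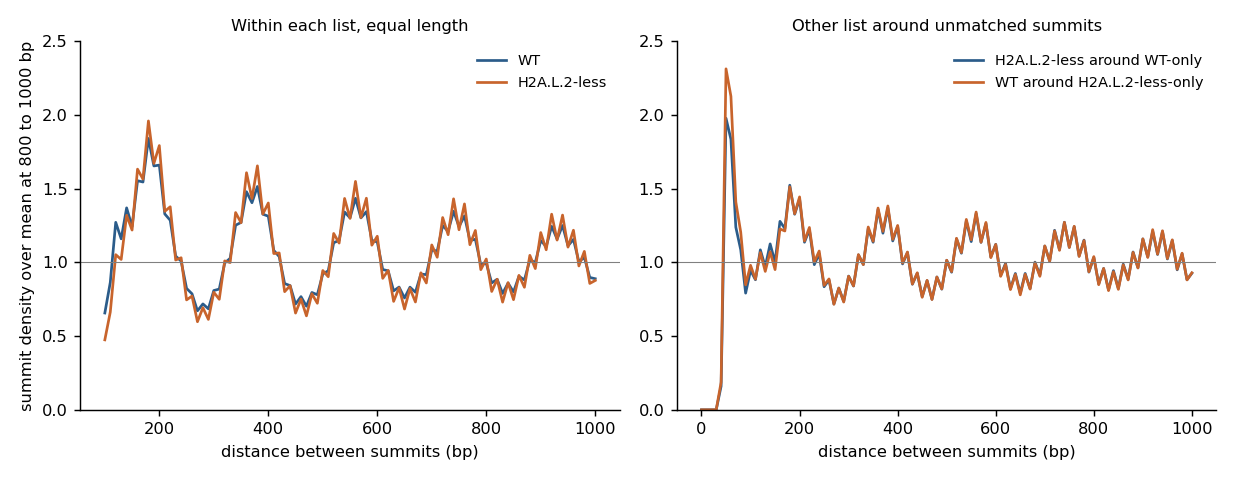
Density of summits at each distance in bp, divided by the mean from 800 to 1000 bp. Left, within the WT and H2A.L.2-less lists at equal length, with the peaks of the H2A.L.2-less curve above and its troughs below those of WT; right, summits of the other genotype around WT-only and H2A.L.2-less-only summits, which are absent up to 40 bp by the matching rule and are most frequent at 50 bp, with a peak near 180 bp.

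Unmatched summits lay in less regular surroundings within their own list. The classes also differed in height and fuzziness, and the distance curves were not compared within deciles of height. Within the WT list the ratio of second peak to trough was 2.37 around matched and 1.51 around WT-only summits, and within the H2A.L.2-less list it was 2.71 around matched and 1.75 around H2A.L.2-less-only summits. Curves of the other list around each class depend on the matching rule itself, which sets their phase, and are given as a description. The H2A.L.2-less list gave a ratio of 2.65 around matched WT and 1.58 around WT-only summits, and the WT list 2.43 and 1.59 around the H2A.L.2-less classes. Around unmatched summits the other list was most frequent at the shortest distance the rule allows, with 1.98 times the background at 50 bp from WT-only and 2.31 times from H2A.L.2-less-only summits. It was at 0.792 and 0.848 at 90 bp, and at 0.946 and 0.980 at 100 bp, in unsmoothed bins that alternate along the curve. The other list had a peak at 180 bp in both.

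The third question was whether the numbers of summits differed evenly along the chromosomes. Some megabase regions held fewer summits in H2A.L.2-less cells and others held more. The lists were cut to equal length, and 23952 windows of 100 kb had at least 100 summits in both lists together. A WT window held a median of 191 summits (5th to 95th percentile 94 to 320) and an H2A.L.2-less window 196 (136 to 255). The coefficient of variation over windows was 37.1% for WT and 19.4% for H2A.L.2-less cells. In spermatocytes it was 36.3% and 30.8%, and in condensing nucleosomes 37.9% and 38.4%. The round spermatid list without H2A.L.2 was thus the most even of the 6 nucleosome lists. Its median summit value was also nearer to its floor than in WT (1.21 against 1.36 times). The condensing nucleosome lists, from another stage and from nucleosome-sized fragments, stood at 1.19 and 1.2 times and were the least even. Whether nearness to the floor had a part in the evenness of a list was not tested.

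The log2 ratio of summit numbers (H2A.L.2-less over WT) had a median of 0.10 and an SD of 0.387 over windows, against 0.175 in spermatocytes and 0.144 in condensing nucleosomes. Counting error alone, taken as Poisson counts, would give about 0.146 for round spermatids and for spermatocytes, and 0.164 for condensing nucleosomes. The last is above the observed SD, so it overstates counting error there. A window was called lower or higher when the numbers differed by over 1.5-fold. This took in 1040 windows that were lower in H2A.L.2-less round spermatids (4.34%) and 2021 that were higher (8.44%). Beyond 2-fold there were 16 lower (0.0668%) and 34 higher windows (0.142%). In spermatocytes 0.0919% of windows were lower and 0.175% higher, and in condensing nucleosomes 0.038% and 0.249%. With at least 300 summits required per window, 1028 were lower and 365 higher, so most higher windows held fewer than 300 in both lists together. Without cutting the lists to equal length, 2807 round spermatid windows were lower and 202 higher. Corrected for list length instead of cut, 987 were lower and 1576 higher. The direction of a single window is therefore relative to the whole list. Numbers of WT and H2A.L.2-less summits correlated across windows with a Pearson r of 0.738, from 0.550 to 0.849 on single autosomes, compared with 0.959 in spermatocytes and 0.972 in condensing nucleosomes. Windows share their libraries and are not replicates.

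**Figure D3:**
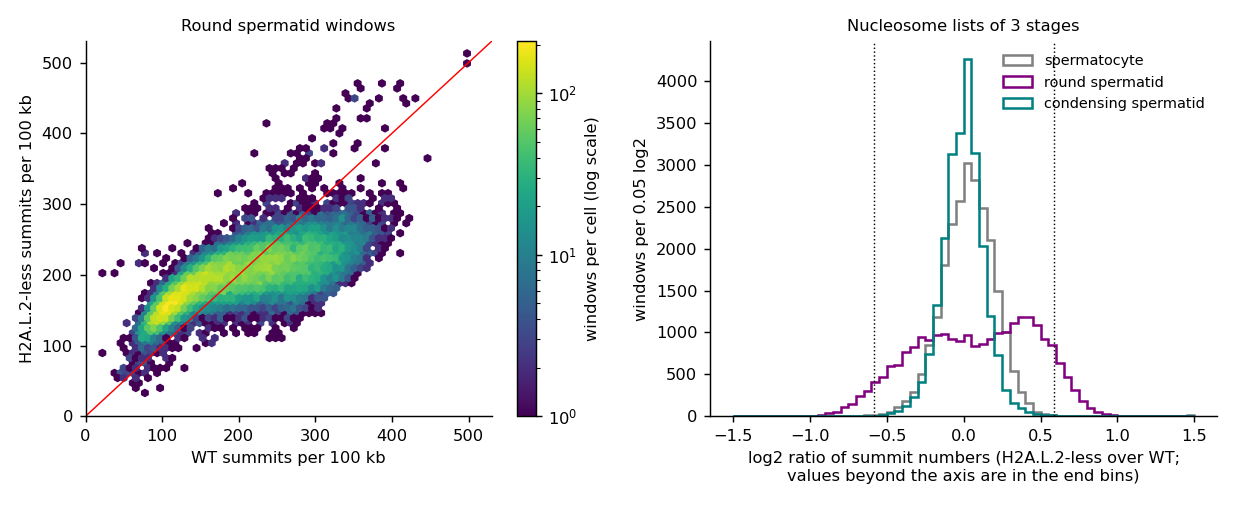
Left, numbers of summits per 100 kb window in WT and H2A.L.2-less round spermatids at equal list length, coloured by the number of windows on a log scale, with the line of equal numbers in red. Right, windows by log2 ratio of summit numbers for the nucleosome lists of 3 stages, with dotted lines at 1.5-fold; the round spermatid distribution is broad with a shoulder on both sides of 0, and the other stages are narrow.

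Differences came in neighbouring windows. The ratios of adjoining windows correlated at 0.846, against 0.670 in spermatocytes and 0.144 in condensing nucleosomes. The 1040 lower windows formed 575 runs, of which 30 had 5 or more windows and held 22.4% of them. The 2021 higher windows formed 1318 runs, of which 33 had 5 or more windows and held 10.04%. By autosome, the share of lower windows went from 0.830% on chromosome 3 to 8.63% on chromosome 5.

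The longest run of lower windows was on chromosome 8 from 121900001 to 124600000, with 5323 H2A.L.2-less and 8770 WT summits, a log2 ratio of -0.72. Spermatocytes had 7351 and 9229 summits there, and condensing nucleosomes 6332 and 6379. The next were on chromosome 10 from 79100001 to 81100000, with 2780 against 5402 (log2 ratio -0.96), and on chromosome 5 from 114200001 to 115400000, with 2044 against 3455 (-0.76). In these 3 runs 25.97% to 33.3% of WT summits and 57.8% to 61.4% of H2A.L.2-less summits were matched. Both shares count the same pairs, so their ratio is set by the numbers for which the runs were chosen. All 3 were rich in small structures, with 13784, 10701 and 5907 WT small-structure summits.

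The longest run of higher windows was on chromosome 7 from 32400001 to 34000000, with 3588 H2A.L.2-less and 1338 WT summits, a log2 ratio of 1.42. The same stretch held 2660 and 1109 spermatocyte summits, but 4200 and 4263 condensing nucleosome summits. The next were on chromosome 15 from 69300001 to 70500000, with 2124 against 1322 (log2 ratio 0.68), and on chromosome 7 from 59900001 to 61000000, with 1891 against 1115 (0.76). In the latter pair, spermatocytes had 1685 against 1658 and 1504 against 1296 (log2 ratios of 0.02 and 0.21). WT small structures numbered 706 and 785 in this pair, but 2943 in the longest run.

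The single windows with the highest ratios were all in the chromosome 7 stretch. They start at 32500001, 33300001 and 33200001 and held 202, 204 and 216 H2A.L.2-less against 24, 37 and 48 WT summits. In spermatocytes the same windows held 151, 135 and 157 against 16, 35 and 49, and in condensing nucleosomes 229, 234 and 266 against 250, 236 and 251. The lowest were on chromosome 17 from 6800001 and from 6600001, with 33 against 81 and 39 against 95, and on chromosome 10 from 79800001, with 111 against 253. In spermatocytes these windows held 50, 36 and 165 against 85, 82 and 261, the same direction as in round spermatids. In the chromosome 17 windows the condensing nucleosome numbers ran the other way, with 41 against 26 and 39 against 21. Those numbers are below the minimum of 100 summits in both lists together that was set for a window, so no direction is drawn from them. The chromosome 10 window held 254 against 264 condensing nucleosome summits.

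The windows were then set against the other stages, whose libraries the round spermatid ratio does not use. At equal list length, windows rich in small structures of condensing spermatids held fewer summits in H2A.L.2-less round spermatids, and windows poor in them held more. WT numbers varied more over windows than H2A.L.2-less numbers, so the ratio tends to fall with any list that follows WT density. Across 23952 windows the rank correlation of the round spermatid ratio with the number of WT small structures was -0.94, from -0.95 to -0.89 on single autosomes. With the number of H2A.L.2-less small structures it was also -0.94. The ratio went with summit numbers in each of the other lists: the correlation was -0.87 with WT and -0.77 with H2A.L.2-less spermatocyte nucleosomes, and -0.77 with the condensing nucleosomes of both genotypes. The spermatocyte ratio went the same way, with a rank correlation of 0.75 with the round spermatid ratio, whereas the condensing nucleosome ratio gave -0.03. These are descriptions over windows that share base composition, mappability and libraries. Base composition was not computed, since no mm9 sequence was used here, and its part in the result was not tested.

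In the decile of windows with the fewest WT small structures (17 to 61 per window), the median was 97 summits in WT and 145 in H2A.L.2-less round spermatids, a median log2 ratio of 0.58. In the decile with the most (431 to 573), it was 313 for WT and 213 for H2A.L.2-less cells, a median log2 ratio of -0.55. Median numbers thus spanned a wider range in WT than in H2A.L.2-less cells. In the richest decile 967 of the 2395 windows were called lower and none higher, and in the poorest 1131 of 2396 were called higher and none lower. The spermatocyte ratio was 0.19 in the poorest and -0.16 in the richest decile, and the condensing nucleosome ratio 0.00 in both.

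Heights and fuzziness also differed between these deciles. From the poorest to the richest decile, the median log2 ratio of relative heights in matched pairs went from 0.04 to -0.10. This small difference in height had the sign of the difference in number. Number and height both depend on coverage relative to the floor, so they are not separate observations. Median fuzziness went from 51.8 to 54.4 in WT and from 51.9 to 53.1 in H2A.L.2-less cells. Regularity was higher in H2A.L.2-less cells in each of the 10 deciles. In WT it was 1.77 in the poorest and 1.99 in the richest decile, whereas in H2A.L.2-less cells it lay between 2.13 and 2.22 with no order along the deciles. The WT repeat length was 188.6 bp in the poorest and 186.1 bp in the richest decile, and the H2A.L.2-less one 186.6 and 186.1 bp.

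**Figure D4:**
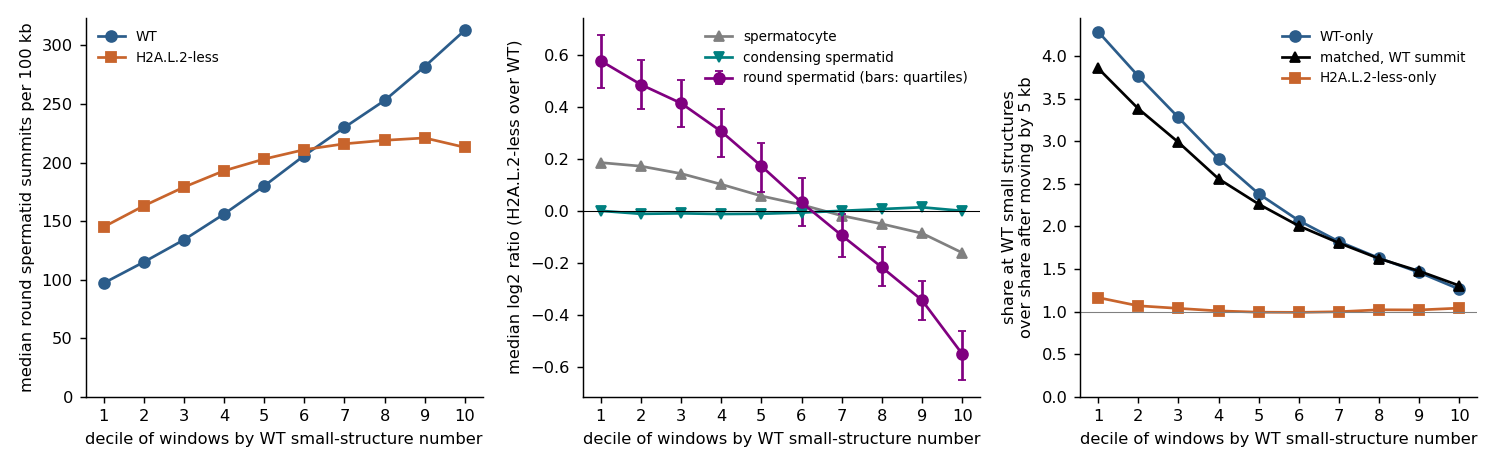
Deciles of 100 kb windows ordered by their number of WT small structures, from fewest (1) to most (10). Left, median summits per window in WT and H2A.L.2-less round spermatids; middle, median log2 ratio of numbers at 3 stages with quartiles for round spermatids; right, share of round spermatid summits within 40 bp of a WT small structure over the share after moving the list by 5 kb. WT medians run from 97 to 313 and H2A.L.2-less medians from 145 to 213, and the H2A.L.2-less-only summits stay near 1 in the right panel.

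The last question was whether matched, WT-only and H2A.L.2-less-only summits were also positions in the other libraries. Of the WT summits with a match, 64.1% lay within 40 bp of a WT spermatocyte summit (SD 0.802 points), 3.003 times the share after moving the list by 5 kb. WT-only summits did so in 46.0% (SD 0.993 points), 2.07 times, and H2A.L.2-less-only summits in 31.4% (SD 1.55 points), 1.62 times. In the H2A.L.2-less spermatocyte list the order was the same, with 59.97%, 40.6% and 30.3%. The summits of H2A.L.2-less round spermatids that WT lacked were thus found less often in H2A.L.2-less spermatocytes than those that WT had and H2A.L.2-less round spermatids lacked. The autosomal ranges, 28.5% to 32.6% and 39.7% to 41.5%, did not overlap. In either spermatocyte list together, 62.6% of WT-only and 46.7% of H2A.L.2-less-only summits were found, against 80.4% of matched WT summits. No background from moved lists was taken for this combined share. In the WT spermatocyte list alone it was 22.2% for WT-only and 19.4% for H2A.L.2-less-only summits.

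In the condensing nucleosome lists the unmatched classes had similar shares, but H2A.L.2-less-only summits stood further above the moved list. WT-only summits were found in 21.5% of cases in the WT condensing list (SD 1.25 points) and H2A.L.2-less-only summits in 21.2% (SD 1.37 points), against 16.1% and 14.2% after moving the list. Matched WT summits were found in 28.2%. Over the share after moving the list, the values were 1.34 for WT-only, 1.495 for H2A.L.2-less-only and 1.81 for matched summits. The H2A.L.2-less condensing list gave 22.1%, 21.7% and 29.0%.

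In small structures the shares of the unmatched classes lay farthest apart. WT-only summits had a WT small structure within 40 bp in 43.5% of cases (SD 2.19 points, 25.4% after moving the list) and matched WT summits in 40.4% (SD 2.44 points, 23.0% after moving). H2A.L.2-less-only summits had one in 19.9% (SD 2.43 points), against 19.5% after moving the list, a ratio of 1.02. The difference between WT-only and H2A.L.2-less-only summits was 23.6 points (SD 0.453). The small structures of H2A.L.2-less cells gave the same order, with 33.0% of WT-only, 28.8% of matched WT and 14.3% of H2A.L.2-less-only summits, the last against 14.8% after moving.

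**Figure D5:**
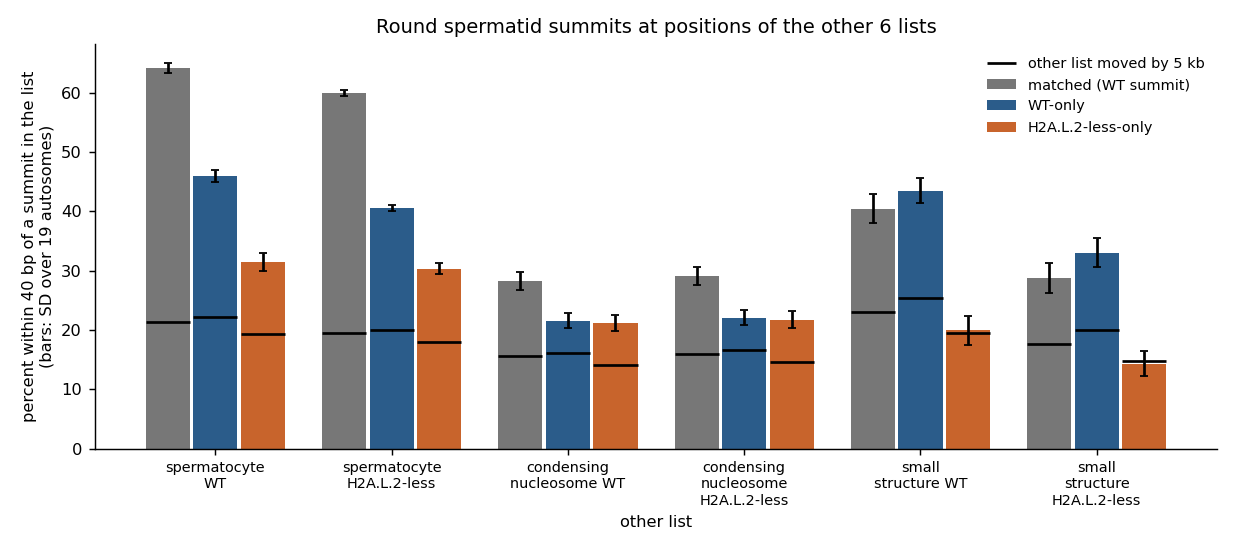
Percent of matched WT, WT-only and H2A.L.2-less-only round spermatid summits within 40 bp of a summit in each of the other 6 lists; error bars are SD over 19 autosomes and black lines the percent after moving the other list by 5 kb. In both small-structure lists the H2A.L.2-less-only bars are at the black line, at 19.9% and 14.3%, and the WT-only bars are above it, at 43.5% and 33.0%.

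The difference was also present where numbers were alike. In the windows of nearly equal numbers, 43.0% of WT-only and 21.3% of H2A.L.2-less-only summits lay at WT small structures, against 22.0% and 21.3% after moving the list. Across the deciles of windows, the share over that background went from 4.29 in the poorest to 1.26 in the richest decile for WT-only summits, and stayed between 0.991 and 1.16 for H2A.L.2-less-only summits. It was present among high summits too. In the highest decile of each class, 48.3% of WT-only and 18.3% of H2A.L.2-less-only summits lay at WT small structures, 1.90 and 0.992 times the background, although 45.1% of those H2A.L.2-less-only summits were WT spermatocyte positions. In unsmoothed 10 bp bins, the density of WT small structures was 1.92 times the background at WT-only summits and 0.917 at 90 bp. Around H2A.L.2-less-only summits it was 1.13 at 0 bp, 0.988 at 10 bp and 0.841 at 90 bp. Neighbouring bins alternate along this curve, with 1.10 at 840 bp and 0.972 at 850 bp. Its value at 280 bp, 1.15, was above that at 0 bp.

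Counted over all 6 other lists, 13.6% of WT-only summits and 30.6% of H2A.L.2-less-only summits (728913) were found in none, against 6.97% of matched WT summits. A WT-only summit was found in a mean of 2.07 lists, an H2A.L.2-less-only summit in 1.39 and a matched WT summit in 2.51. All 6 lists held 0.706% of WT-only, 0.280% of H2A.L.2-less-only and 1.64% of matched WT summits. No background from moved lists was taken for these combined counts. In each of the 6 single lists that background was higher for WT-only than for H2A.L.2-less-only summits, so part of these differences is background.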

How the data were processed

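Nucleosome positions of WT and H2A.L.2-less round spermatids were taken from the deposited lists, with those of the other 6 libraries for comparison. The submitters' processing notes list Bowtie2 2.2.9, deepTools 2.2.4 and mm9. Per the series description, alignments of 3 runs per sample were merged. The sources used here do not give the settings of the position caller. The deposited columns, per the file headers, are the coordinates and summit of a position, its coverage signal at the summit and the authors' fuzziness score. The signal comes in whole multiples of 4 and shows no scaling to depth. Summits in a list are at least 100 bp apart.

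Lists were cut to equal length by summit value, with ties in seeded random order. Distance curves (10 bp bins) were scaled to their mean between 800 and 1000 bp. They were smoothed over 5 bins for peaks, troughs, regularity and repeat length. Values at single distances and the plotted curves are unsmoothed. Repeat length was the slope over the first 4 peaks, interpolated between bins. Window ratios had 0.5 added to each number. Named regions are the 3 highest and 3 lowest windows and the 3 longest runs past 1.5-fold each way, and named summits the 3 highest unmatched per list. Named autosomes are those with the 3 highest and lowest matched shares. The lists compared and the measures were chosen with earlier results of these data known. Windows of nearly equal numbers were added after seeing the data. The matching, curve and window code was tested on simulated data. Analyses used Python 3.11.15, numpy 2.4.6, pandas 2.3.3, scipy 1.17.1 and matplotlib 3.10.9.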

Additional observations from a re-analysis of the deposited data

Results flagged for a closer look

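Some differences between genotypes had opposite signs in round and condensing spermatids, with 1 library in each group, and the difference between stages was not tested. The log2 ratio of list lengths (H2A.L.2-less over WT) was -0.18 in round spermatids and 0.0394 in condensing nucleosomes, with -0.12 in spermatocytes. The median fuzziness differed by -0.51 (H2A.L.2-less minus WT) in round spermatids and by 0.0762 in condensing nucleosomes, with -0.21 in spermatocytes. Regularity at equal list length differed by 0.25 in round spermatids and by -0.00373 in condensing nucleosomes, where its SD over autosomes was 0.0143, and by 0.149 in spermatocytes. In all 3 measures spermatocytes had the sign of round spermatids.

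Summits outside the autosomes were not used above. Chromosome X held 63411 summits in WT and 46411 in H2A.L.2-less round spermatids, chromosome Y held 1893 and 1846, and mitochondrial DNA held 9 and 14.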

How the results depend on the processing

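No paired analysis was possible because each group had 1 library, and none could be left out. Of 80 alternative values for 16 results, 28 moved by less than the reference spread (the counting interval for shares, the SD over autosomes for others, 1.5 times for counts), 51 moved further and 1 reversed. The cause was not tested, except that tighter limits, fewer positions and more windows give other counts by construction. The matched share of WT summits was 30.2% within 20 bp, 55.2% within 73 bp, 45.2% at equal list length, 32.9% for positions at or above the median, 43.5% without the highest 0.1% and 44.8% in windows of nearly equal numbers. For H2A.L.2-less summits it was 34.2%, 62.2%, 45.2%, 38.2%, 49.3% and 50.8%. The height of matched over WT-only summits was 1.14 within 20 bp, 1.14 within 73 bp and 1.10 at or above the median, and over H2A.L.2-less-only summits 1.10 within 73 bp. The fuzziness difference in WT was -1.60 within 20 bp, -0.76 within 73 bp, -1.40 at equal length, -1.13 at or above the median and -0.98 as the mean within deciles of height. In H2A.L.2-less cells it was -0.91, 0.19 (reversed), -0.58, -0.30 and -0.25.

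The median gap differed by 50 bp in the full lists, 20 bp in the highest positions (both lists cut to 50% of the shorter one) and 10 bp in windows of nearly equal numbers. The regularity difference was 0.349 in the full lists and 0.186 in the highest positions. Windows past 1.5-fold were 2807 lower and 202 higher in the full lists, 2295 and 3449 in the highest positions, 42 and 60 in windows of 1 Mb, and 2499 and 4688 in windows of 50 kb. With at least 300 summits per window, 1028 were lower and 365 higher. Higher windows made up 66.0% of those called at equal length, 6.71% in the full lists and 26.2% with at least 300 summits. Pearson's r was 0.602 in the highest positions and 0.541 with at least 300 summits. In windows of 1 Mb the rank correlations were -0.97 with small structures and 0.91 with the spermatocyte ratio. WT-only minus H2A.L.2-less-only shares at WT small structures were 11.6 points within 20 bp, 24.1 at equal length and 21.8 in windows of nearly equal numbers. In WT spermatocytes they were 8.57, 15.5 and 13.2 points, and in H2A.L.2-less spermatocytes 5.97 and 11.3 points in the former pair of settings. All lists leave out sites with coverage under the calling floor. The depth of a single library is unknown, and its part in these values was not tested.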
